A study of Mus musculus with 6 samples.

Results

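Genes of glycogen breakdown, of glycolysis and of the cytosolic glycerol 3-phosphate shuttle were followed in the tibialis anterior, a fast muscle of the mouse shin, after a single bout of contractions. The members are 10 genes: Phka1 and Pygm of glycogen breakdown, Pfkm, Aldoa, Gapdh, Pgam2, Eno3 and Pkm of glycolysis, Ldha, which interconverts pyruvate and lactate, and Gpd1. They were matched by gene symbol in the platform annotation to 14 of 12422 probe sets on the Affymetrix MGU74Av2 array, control probe sets left aside. Of these, 12 probe sets were annotated to 1 member gene each and covered 9 of the 8251 genes with a probe set of their own. The other 2 were annotated to Gapdh together with Gapdh pseudogenes, so they are described apart and entered no count of members. The genes were chosen by their signals in the eccentric and control pools, where Gpd1 and Phka1 had passed a 2-fold rule in earlier work on these arrays, so their values are given as a description with no test.

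The study compared 3 pools of total RNA, each from the tibialis anterior of 4 mice killed 48 h after the contractions, and each hybridised to 2 arrays, A and B. The eccentric pool came from legs given 50 eccentric contractions (lengthening under load), and the isometric pool from legs given 50 isometric ones (at fixed length). The control pool came from opposite legs, which had contracted only as far as a torque measurement required. The labels give no strain, sex or age, and they do not say which of the exercised animals supplied the control legs. A group is therefore 1 pooled biological sample, and every SD below is over n = 2 arrays of 1 pool, so it covers labelling and hybridisation and leaves out the spread between animals. All 13 fast-fibre marker genes, from skeletal alpha-actin to parvalbumin, lay above the floor described below on all 6 arrays. Because the tissue was measured in bulk, fewer fibres and less RNA per fibre cannot be told apart.

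Glycogen is the carbohydrate store of a muscle fibre. Phosphorylase kinase, of which Phka1 encodes the muscle alpha subunit, switches on glycogen phosphorylase (Pygm), which releases glucose 1-phosphate, and glycolysis turns this into pyruvate. Fast fibres rely on this route and use muscle isoforms of several of its enzymes, such as Pfkm, Pgam2 and Eno3. Gpd1, the cytosolic glycerol 3-phosphate dehydrogenase, takes dihydroxyacetone phosphate from glycolysis, reoxidises NADH and supplies the glycerol backbone of lipids.

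The bases upstream of 3 members are shown to set the upstream sequence of Phka1, which was called, beside those of Pygm and Pgam2, which were lower in the eccentric pool by a smaller amount. They come from RefSeq, build GRCm38.p6, run 5′ to 3′ on the strand of the gene and end 1 base before the outermost annotated start of the gene. The Phka1 stretch lies at chrX:102644302-102644496 on the minus strand, that of Pygm at chr19:6384158-6384407 on the plus strand and that of Pgam2 at chr11:5803797-5804046 on the minus strand. Capitals mark matches to the E-box CANNTG, the sequence that myogenic regulatory factors recognise, and to the AT-rich MEF2 motif.
Phka1: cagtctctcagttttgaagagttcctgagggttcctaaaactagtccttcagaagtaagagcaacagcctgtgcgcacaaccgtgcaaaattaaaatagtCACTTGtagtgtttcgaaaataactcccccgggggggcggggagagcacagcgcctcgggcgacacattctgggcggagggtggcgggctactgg
Pygm: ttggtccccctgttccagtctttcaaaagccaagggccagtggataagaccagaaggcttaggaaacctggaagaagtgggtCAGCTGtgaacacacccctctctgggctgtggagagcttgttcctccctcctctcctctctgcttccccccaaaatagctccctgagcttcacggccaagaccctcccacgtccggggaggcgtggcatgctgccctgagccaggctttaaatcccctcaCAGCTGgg
Pgam2: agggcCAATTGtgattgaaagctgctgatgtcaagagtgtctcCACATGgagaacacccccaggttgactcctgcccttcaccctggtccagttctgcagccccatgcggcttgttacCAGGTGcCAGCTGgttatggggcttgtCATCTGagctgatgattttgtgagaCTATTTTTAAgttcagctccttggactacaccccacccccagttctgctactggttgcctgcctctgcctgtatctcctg

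The Pgam2 stretch held 5 E-boxes and 1 MEF2 match, which do not overlap each other. Those of Pygm and Phka1 held 2 and 1 E-boxes and 0 MEF2 matches. The Phka1 stretch has 195 bases and the others 250, so these counts do not compare like lengths. The full Phka1 window of 250 bases, which runs past the outermost start, held 2 E-boxes. Across 32851 windows of 250 bases before a RefSeq start, 66.2% held an E-box and 2.92% the MEF2 motif, where both motifs read the same on either strand apart from their variable bases. Of the 10 members 9, all but Gpd1, had a start among these windows. They had 16 start sites, of which 13 had an E-box and 1 had a MEF2 match. Some of these windows overlap, and an Aldoa E-box counts at more than 1 start site. These are matches of letters and no binding was measured.

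Signals are the linear intensities the authors deposited, scaled to one trimmed mean per array. Values under a floor of 120.8, the 40th percentile of all values, were set to it before log2 was taken, and a probe set counted as measured in a comparison when 1 or both of its pools had the pair of arrays above it. The word called is kept for probe sets with a difference of 1 or more between mean log2 signals, which is 2-fold, provided that the 4 possible pairings of arrays across the pools shared its sign. Array A of the control pool and array B of the isometric pool stood apart from their partners at the bright end. The mean log2 signal of the 125 probe sets with a mean of at least 10000 was 14.18 on control A and 14.22 on isometric B, against 14.00 on control B, 13.88 on eccentric A, 13.83 on eccentric B and 13.88 on isometric A. Of the 12 member probe sets 9 belong to these 125, and 11 were brighter on isometric B than on isometric A. For each difference of these 12 probe sets from the eccentric pool printed below, the value or range without 1 array is given where it moved by over 1.5 times. The differences of the Gapdh-annotated probe sets were not recomputed without 1 array.

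Set against the control pool, the eccentric pool shows what differed after lengthening contractions. All 12 member probe sets had lower mean signals in the eccentric pool, by log2 differences of -1.19 to -0.10 with a median of -0.50. Of them 3 were called lower and 0 higher, where 1.11% of the 7486 probe sets measured were called lower and 4.86% higher. In 10 of the 12 all 4 pairings were lower and in 0 all were higher, where 31.5% and 30.1% of all probe sets were so. Nothing is read from these shares, since the genes had been chosen with this comparison in view. The median over all measured probe sets was -0.03, and over the 125 brightest it was -0.32, with 64% of these lower in all pairings. The 9 bright member probe sets had a median of -0.41 and were lower in all pairings in 7 of 9, so they lay close to other bright probe sets. The 3 called probe sets were those of Gpd1 and Phka1, which are dimmer and do not belong to the bright probe sets. Without control A the member median was -0.39 and the same number, 3, were called. Without control B it was -0.62 with 1 called, and without eccentric B it was -0.46 with 1 called, that of the brighter Gpd1 probe set both times.

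**Figure D1:**
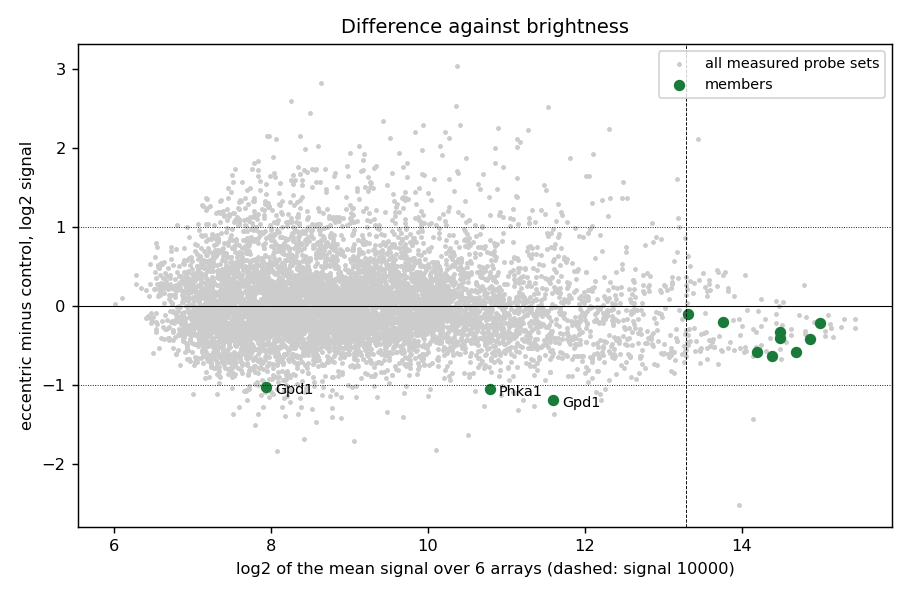
Difference between the eccentric and the control pool (log2 signal, vertical axis) against the mean signal over the 6 arrays (log2, horizontal axis) for the 7486 measured probe sets (grey) and the 12 member probe sets (green). Dotted lines mark a 2-fold difference and the dashed line a signal of 10000. The 3 called member probe sets, of Gpd1 and Phka1, lie left of the dashed line, and the 9 others lie to its right at -0.63 to -0.10.

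In glycogen breakdown, Phka1 had signals of 2183 and 2687 on control arrays A and B, 1261 and 1081 on the eccentric arrays, and 1839 and 1544 on the isometric arrays. The 3 pools did not overlap, with the eccentric arrays lowest and the isometric arrays between them and the control arrays. The pool means were 2435 ± 357 in the control, 1171 ± 127 in the eccentric pool and, for the isometric arrays, 1691 ± 209. Phka1 was thus 2.08-fold lower in the eccentric than in the control pool, a log2 difference of -1.05 with pairings from -1.31 to -0.79. Its difference was -0.90 without control B and -0.94 without eccentric B, which ended the call. The isometric pool differed from the control pool by -0.52 (-0.80 to -0.25) and was not called.

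Pygm, the muscle glycogen phosphorylase, had 34935 and 27494 in the control, 21267 and 19843 in the eccentric and 24107 and 31577 in the isometric pool. Both eccentric arrays lay below the 4 others, while the control and isometric arrays overlapped. The eccentric pool was 1.51-fold lower than the control pool at 20555 ± 1007 against 31214 ± 5261, a log2 difference of -0.59 that was not called. It was -0.42 without control A and -0.31 after quantile normalization, an alternative that gives all arrays the same distribution of signals.

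Among other genes of glycogen metabolism, 14 of 20 listed genes were on the array and 13 of their 16 probe sets were measured in the eccentric against control comparison. None was called in either direction, 6 were lower and 2 higher in all pairings, and their median was -0.24, or -0.38 without control B. Phkg1, the muscle catalytic subunit of phosphorylase kinase, had 2718 and 3450 in the control, 1702 and 1798 in the eccentric and 3309 and 3084 in the isometric pool. Its log2 difference of -0.81 in the eccentric pool was short of the rule, and the isometric pool differed by 0.06, with arrays that overlapped those of the control pool. Phka2, the liver form of the alpha subunit, was higher in all pairings at 327 ± 4.1 in the eccentric against 253 ± 89.5 in the control pool. Its lowest pairing was 0.03. Pgm1, which converts glucose 1-phosphate to glucose 6-phosphate, had 11899 ± 412 against 17546 ± 2018 in the eccentric against the control pool. Muscle glycogen synthase, Gys1, had 5964 ± 157 against 7309 ± 644.

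**Figure D2:**
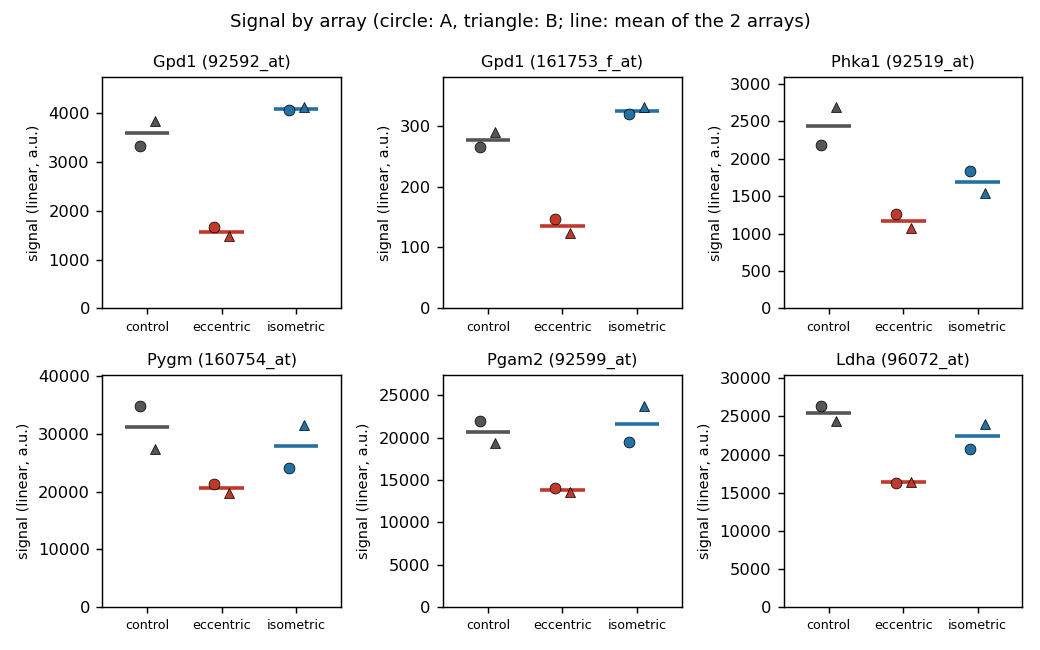
Linear signal on each array (circle, array A; triangle, array B) with the mean of the 2 arrays of each pool (line) for both Gpd1 probe sets, Phka1, Pygm, Pgam2 and Ldha; each vertical axis starts at 0. The eccentric arrays lie below all other arrays in each of the 6 panels, and both isometric arrays lie above both control arrays in the Gpd1 panels alone.

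In glycolysis, Pfkm, the muscle phosphofructokinase that catalyses the committed step, had 27254 and 25255 in the control, 20310 and 19084 in the eccentric and 19399 and 26257 in the isometric pool. The eccentric arrays lay below both control arrays, at a log2 difference of -0.41, or -0.16 after quantile normalization, and isometric A lay among the eccentric arrays. Aldoa, the muscle aldolase, was measured by a pair of probe sets whose suffix marks probes matching a sequence family. The brighter had 34241 ± 6007 in the control, 29173 ± 2429 in the eccentric pool and, for the isometric arrays, 35018 ± 13065, and isometric A, at 25779, was its lowest array. Its eccentric difference of -0.22 was -0.04 without control A, -0.40 without control B, -0.14 without eccentric B and 0.03 after quantile normalization. The dimmer had 14075 ± 1380, 12220 ± 139 and 15544 ± 2083, and its difference of -0.20 had the same sign in all 4 pairings, at -0.10 without control B, -0.30 without control A and -0.12 after quantile normalization.

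Pgam2, the muscle phosphoglycerate mutase, had 22013 and 19307 in the control, 14037 and 13591 in the eccentric and 19492 and 23772 in the isometric pool. The eccentric arrays were well below the others, and the control and isometric arrays interleaved. The log2 difference from the control pool was -0.58 (-0.70 to -0.46), or -0.32 after quantile normalization. Eno3, the muscle enolase, had 37203 and 30198 in the control, 25757 and 24493 in the eccentric and 26499 and 35884 in the isometric pool. Both eccentric arrays were again lowest, with isometric A close above them, and the difference was -0.42, or -0.27 without control A and -0.17 after quantile normalization.

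Pkm, which encodes the pyruvate kinase of muscle, gave unequal answers on its probe sets. The brighter had 25212 ± 2927 in the control, 20038 ± 1319 in the eccentric pool and, for the isometric arrays, 23692 ± 4934, with all eccentric pairings against the control pool lower and a difference of -0.33, which was -0.21 without control A and -0.04 after quantile normalization. The dimmer had 12886 and 9490 in the control, 9644 and 11070 in the eccentric and 6696 and 11306 in the isometric pool. Its eccentric arrays lay between the control arrays, so no difference was seen beyond the spread of arrays, and the mean difference of -0.10 ran from -0.32 without control B to 0.12 without control A. Ldha, the lactate dehydrogenase subunit abundant in fast muscle, had 26418 and 24413 in the control, 16325 and 16403 in the eccentric and 20713 and 24032 in the isometric pool. It was 1.55-fold lower in the eccentric than in the control pool, at -0.63 (-0.69 to -0.57) or -0.33 after quantile normalization, the largest difference among member probe sets that were not called. The members nearest the 2-fold line were therefore Phka1 at -1.05 and the dimmer Gpd1 probe set at -1.03 inside it, and Ldha at -0.63 and Pygm at -0.59 outside it.

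Gapdh, a glycolytic dehydrogenase often taken as a reference transcript, could not be read on its own. A bright probe set, annotated to Gapdh, Gapdh-ps15 and Gm12070, had 45262 and 36412 in the control, 32165 and 29413 in the eccentric and 31085 and 46160 in the isometric pool. The eccentric arrays were below the control arrays, by -0.40, and the isometric arrays spanned nearly the whole range. A second, annotated to Gapdh and Gapdh-ps15, was dim at 635 ± 216, 493 ± 26.4 and 416 ± 52.9, with control and eccentric arrays overlapping. The Affymetrix control probe sets for the 5′, middle and 3′ parts of Gapdh differed between the same pools by -0.39, -0.34 and -0.21. The log2 ratio of the 3′ to the 5′ control was 0.12 and 0.13 on the eccentric, -0.05 and -0.07 on the control and -0.07 and 0.27 on the isometric arrays. The same ratio for beta-actin (Actb) was 0.43 and 0.45 on the eccentric, 0.01 and 0.07 on the control and 0.14 and 0.27 on the isometric arrays, so that the eccentric arrays lay above all others. The part of RNA quality in the member differences was not tested.

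**Figure D3:**
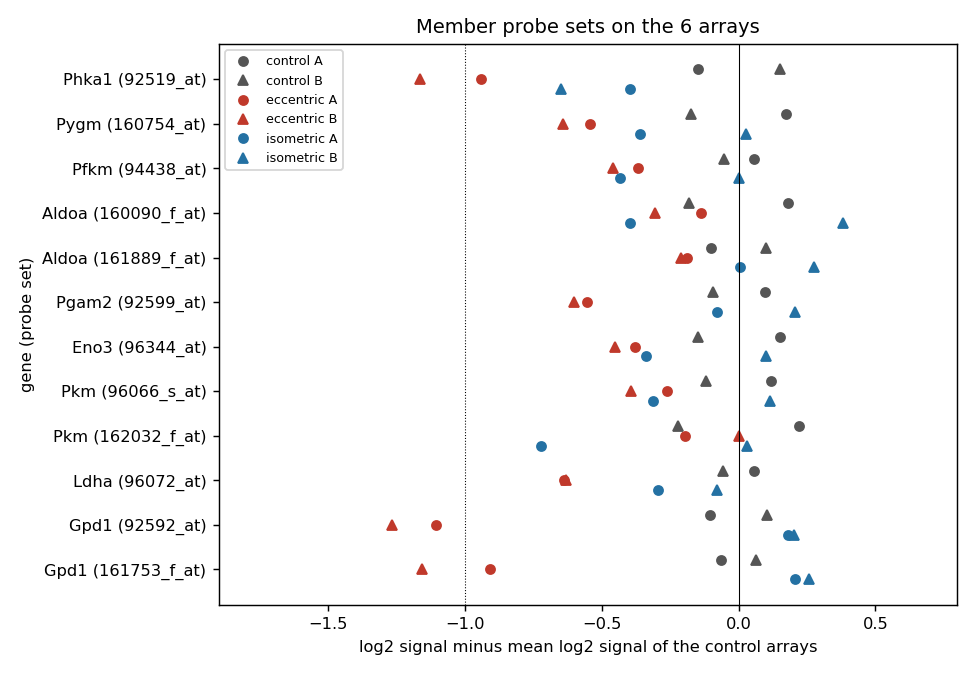
Log2 signal of the 12 member probe sets on each array minus the mean log2 signal of the control arrays (horizontal axis), by pool (colour) and array letter (shape); the dotted line marks a 2-fold lower signal. The eccentric arrays lie left of both control arrays for 10 probe sets and overlap them for the brighter Aldoa and the dimmer Pkm probe set, and isometric B lies right of isometric A in every row except Phka1.

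Gpd1 was the member with the largest difference of the eccentric pool from each of the others, and it was measured by 2 probe sets. The brighter had 3334 and 3851 on the control, 1663 and 1486 on the eccentric and 4065 and 4126 on the isometric arrays. The 3 pools did not overlap, and here the isometric arrays were the highest. Its mean was 1575 ± 125 in the eccentric against 3592 ± 366 in the control pool, 2.28-fold lower, with a log2 difference of -1.19 (-1.37 to -1.0). With any 1 array left out the difference was -1.29 to -1.08. It was the 32nd lowest of the 7486 measured probe sets.

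The dimmer Gpd1 probe set had 264 and 289 on the control, 147 and 124 on the eccentric and 319 and 330 on the isometric arrays. The order of the pools was the same as on the brighter probe set, although eccentric B was close to the floor of 120.8. Its eccentric signal was 2.05-fold lower than the control signal at -1.03, or -0.97 without control B and -0.91 without eccentric B, which ended the call. Like the Aldoa, the dimmer Pkm and the Gpd2 probe sets, the dimmer Gpd1 probe set carries the suffix for a sequence family. The log2 ratio of the dimmer to the brighter Gpd1 probe set ran from -3.74 to -3.50 over the 6 arrays. It was highest on both eccentric arrays, by 0.16 (0.07 to 0.24 over the pairings) against the control pool. Both probe sets were called in the eccentric against control comparison after scaling to the median and after quantile normalization as well.

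The isometric pool was set against the control pool to ask what the same number of contractions did at fixed length. None of the 12 member probe sets was called, where 0.409% of 7336 measured probe sets were called lower and 0.913% higher. The member median was -0.11, and the range was -0.52 for Phka1 to 0.23 for the dimmer Gpd1 probe set. Phka1 and Ldha were lower in all 4 pairings and both Gpd1 probe sets were higher in all 4, where 19.5% of all probe sets were lower and 18.5% higher in this way, a share near that of the members. The brighter Gpd1 probe set was 4095 ± 42.8 against 3592 ± 366, a log2 difference of 0.19 (0.08 to 0.31). The member median depended on the array: isometric A against control A gave -0.39, and isometric B against control B gave 0.20. It was -0.33 without isometric B, 0.11 without isometric A and -0.19 with control A and isometric B removed together. No size is therefore given for the bright members in this comparison beyond those ranges.

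The exercised pools were also set against each other, on arrays that both comparisons above had used, to ask what lengthening adds to contraction. The Gpd1 probe sets were the only members called lower, 2 of 12, where 0.61% of 7372 measured probe sets were called lower, and 0 members were called higher against 1.64% of all. The brighter Gpd1 probe set had a log2 difference of -1.38 (-1.47 to -1.29), a 2.6-fold lower signal, and the dimmer one of -1.26, 2.4-fold lower. The range of the brighter was -1.46 to -1.30 with 1 array left out. Among the others, Pgam2 at -0.64, Phka1 at -0.53, Ldha at -0.45, Pygm at -0.43, the dimmer Aldoa probe set at -0.34 and Eno3 at -0.30 were lower in all 4 pairings. Without isometric B, Pygm was at -0.23, the dimmer Aldoa probe set at -0.20 and Eno3 at -0.08, and without isometric A, Eno3 was at -0.51. In all 8 of the 12 were lower in this way and 0 higher, where 24.3% and 28.3% of all probe sets were. Nothing is read from these shares either, since the eccentric signals had been used to choose the genes. Of the 9 bright member probe sets 5 (55.6%) were lower in all pairings, where 45.6% of the 125 brightest were. The member median was -0.38, or -0.22 without isometric B and -0.23 after quantile normalization. Over the alternatives other than leaving out 1 array, the difference of Ldha ran from -0.50 to -0.22. The 125 brightest probe sets had a median of -0.21 here, and 0.04 for eccentric A against isometric A, where the member median was -0.19.

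**Figure D4:**
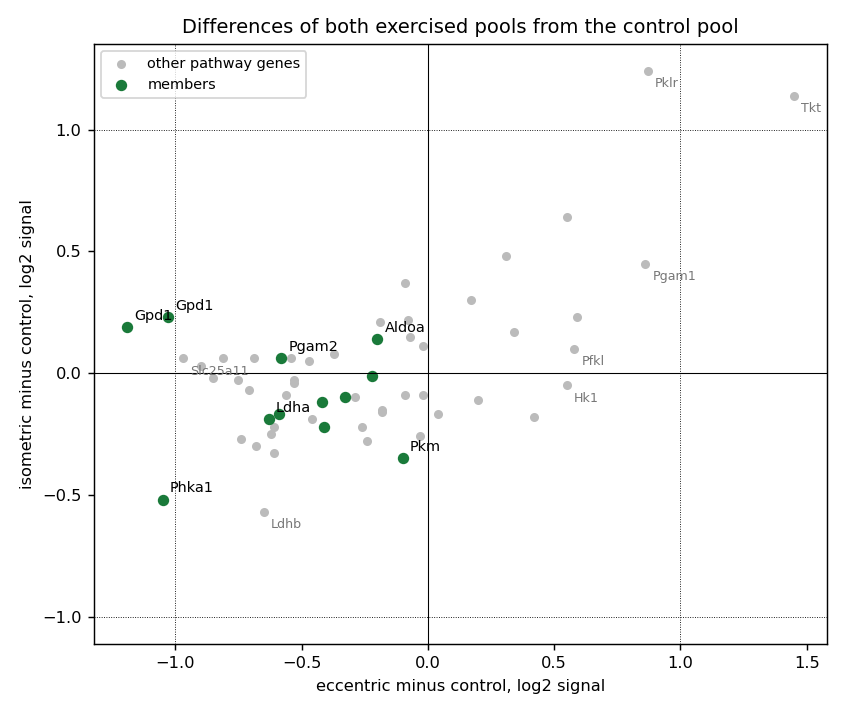
Log2 difference of the eccentric from the control pool (horizontal axis) against that of the isometric from the control pool (vertical axis) for member probe sets (green) and other measured probe sets of the pathway lists (grey); dotted lines mark 2-fold. Both axes share the control arrays, so the alignment of points is not a result. The Gpd1 probe sets lie at -1.19 and -1.03 on the horizontal and at 0.19 and 0.23 on the vertical axis, and Phka1 lies at -1.05 and -0.52.

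The other genes of the pathway did not all follow the members in the eccentric pool. Over 7 lists drawn up for this description, 57 genes that are no members had 71 probe sets, of which 50 were measured against the control pool. Of these 24 were lower and 13 higher in all pairings, 1 was called higher and 0 lower, and the median was -0.18. Within glycolysis, 4 of 9 measured probe sets were lower in all pairings and 5 higher, with a median of 0.39 that was 0.08 without eccentric B, 0.26 without control A and -0.47 at a floor of the 60th percentile, under which fewer dim probe sets were measured. Pfkp, Aldoc and Pygb, further isoforms of members, and Phkb, the beta subunit of phosphorylase kinase, were not measured. The lower were Tpi1 and Pgk1, which act between aldolase and the mutase, Hk2, the hexokinase typical of muscle, and Ldhb, the lactate dehydrogenase subunit typical of heart. Hk2 had 7540 and 6785 in the control against 4743 and 5585 in the eccentric pool, and Ldhb had 1218 and 1289 against 767 and 825. Ldhb was also lower in all pairings in the isometric pool, at 794 and 899, a log2 difference of -0.57 from the control pool. The exercised pools differed in Ldhb by -0.09, with overlapping arrays.

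The 5 higher were isoforms best known from other tissues. Hk1, the hexokinase found in most tissues and named here after its values were seen, had 3162 and 2903 in the control, 4612 and 4267 in the eccentric and 3250 and 2626 in the isometric pool. Pfkl, the liver phosphofructokinase, had 639 and 533 in the control against 872 and 866 in the eccentric pool. Pgam1, the mutase found outside muscle, had 555 and 730 against 1153 and 1158. In all of these the eccentric arrays lay above both control arrays, by log2 differences of 0.55, 0.58 and 0.86, and none passed the 2-fold rule. Eno2 and Pklr, the enolase of neurons and the pyruvate kinase of liver and red blood cells, were the others, each with control A below the floor. Their lowest pairings were 0.03 and 0.01, so control B lay just under an eccentric array. Pklr had a second, dimmer probe set, which lay under the floor on all arrays and was not measured.

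Because 1 scaling factor per array cancels in a ratio of 2 probe sets on that array, ratios of isoforms were compared as well, chosen after the values were seen. The level of such a ratio has no meaning between probe sets, but a single factor per array leaves its change as it is. A shift that depends on brightness does not cancel, so changes after quantile normalization are given too. The log2 ratio of Pgam1 to Pgam2 was -5.31 and -4.73 on the control, -3.61 and -3.55 on the eccentric and -4.19 and -5.07 on the isometric arrays. It was higher by 1.44 (1.12 to 1.76 over the pairings) in the eccentric than in the control pool and by 1.05 (0.59 to 1.52) than in the isometric pool. The ratio of Pfkl to Pfkm was higher by 0.99 (0.87 to 1.11) and 0.67 (0.26 to 1.07), and that of Hk1 to Hk2 by 1.03 (0.84 to 1.21) and 1.13 (0.77 to 1.49). After quantile normalization the changes from the control pool were 1.12 for Pgam1 to Pgam2, 0.67 for Pfkl to Pfkm and 0.99 for Hk1 to Hk2, and those from the isometric pool were 0.85, 0.41 and 1.09. Without isometric B the changes from the isometric pool were 0.61, 0.30 and 0.94. The ratio of Ldhb to Ldha did not separate the eccentric from the control arrays, at a change of -0.02 (-0.17 to 0.13), but it was -0.39 after quantile normalization, so no direction is given for this change. Between the control and the isometric pool the same ratio changed by -0.38 (-0.50 to -0.27), or -0.49 after quantile normalization. The ratio of Gpd1 (brighter probe set) to Gpd2, the mitochondrial partner of the same shuttle, changed by -1.01 (-1.13 to -0.89) between the control and the eccentric pool and by 0.34 (0.19 to 0.49) between the control and the isometric pool, and by -0.96 and 0.33 after quantile normalization. Gpd2 itself had 774 ± 119 in the eccentric and 871 ± 47.6 in the control pool, with overlapping arrays.

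**Figure D5:**
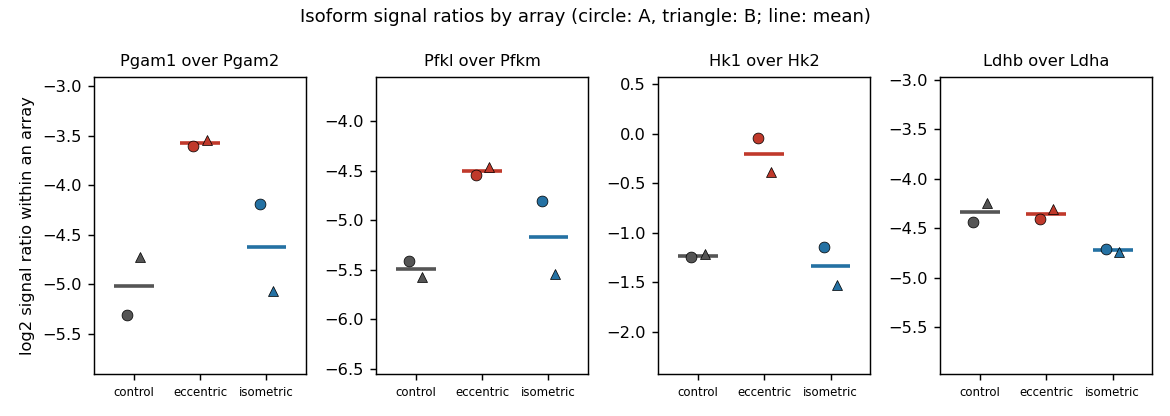
Log2 ratio of the signals of isoform pairs within each array (circle, array A; triangle, array B) with the mean of each pool (line); the vertical axes span the same range. The eccentric arrays lie above both control arrays by 1.44, 0.99 and 1.03 on average for the first 3 pairs, and for Ldhb over Ldha they overlap the control arrays.

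Outside glycolysis, the only other pathway probe set called against the control pool was higher and belonged to Tkt, the transketolase of the pentose phosphate pathway. It had 159 and 543 on the control, 827 and 784 on the eccentric and 617 and 677 on the isometric arrays, and was called higher in both exercised pools, although the control arrays differed more than 3-fold from each other. Without control A its difference from the control pool was 0.57 in place of 1.45 after eccentric and 0.25 in place of 1.14 after isometric contractions, and both calls ended. Of 6 measured pentose phosphate probe sets 4 were higher in all pairings, 1 of them called, and the median was 0.32, or 0.12 without control B and 0.52 without control A. Its brightest genes, Rpia, Pgls and Taldo1, differed by -0.07, 0.31 and 0.34 and were not called. Slc25a11, the oxoglutarate carrier of the malate-aspartate shuttle, which like Gpd1 serves the reoxidation of cytosolic NADH, had 2494 and 2500 in the eccentric pool. That was below the control arrays at 5403 and 4431, by -0.97, and below the isometric arrays at 6162 and 4231, by -1.03, which was called, but by -0.76 without isometric A, which ended the call. Of the 5 measured shuttle probe sets other than those of Gpd1, it alone was called in any of the 3 comparisons. Mdh2, the mitochondrial malate dehydrogenase, differed from the control pool by -0.53 and Got2, an aspartate aminotransferase, by 0.17. Of 8 measured probe sets of the pyruvate dehydrogenase complex and its kinases 0 were called, 4 were lower and 1 higher in all pairings, and the median was -0.38, or -0.23 without control B. Dld, its dihydrolipoamide dehydrogenase, had 2680 ± 196 against 4865 ± 765, Pdha1, a subunit of its first enzyme, differed by -0.74, and Pdk4, a kinase that inhibits it, by -0.08. Of 4 measured transporter probe sets 0 were called and 2 were lower in all pairings, those of Slc2a4 and Bsg. Slc2a4, the insulin-responsive glucose transporter, had 4116 ± 350 against 5659 ± 228. Bsg, a partner of lactate transporters, had 4192 ± 208 against 6886 ± 670. Slc2a3, a glucose transporter typical of neurons, differed by -0.03. Of 5 measured probe sets of regulators 0 were called, and Adk, Fbp2 and Prkag1, the brightest, differed by -0.61, -0.37 and 0.55. In the isometric pool 2 of 47 probe sets of these lists were called, Tkt and the brighter of the Pklr probe sets, both higher, and 0 without control A.

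The probe sets whose pair of differences lay nearest to those of the brighter Gpd1 probe set, among 5640 candidates above the floor on all arrays, belonged to Fancc, Slc37a4, Itm2a, Nrep and Ppif. The likeness is the Euclidean distance over 2 log2 differences, eccentric and isometric minus control, and ran from 0.074 to 0.193. Slc37a4, the glucose 6-phosphate transporter of the endoplasmic reticulum, had 2633 and 3008 on the control, 1056 and 1428 on the eccentric and 3271 and 2806 on the isometric arrays. As in Gpd1 its eccentric arrays were lowest, but its isometric arrays overlapped the control arrays, as did those of Fancc, Itm2a and Ppif. Nrep had 2855 and 2343 on the control, 1057 and 1019 on the eccentric and 2984 and 3307 on the isometric arrays. Its pools did not overlap and lay in the same order as those of Gpd1. Ppif, the mitochondrial cyclophilin, had differences of -1.05 and 0.06.

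Markers of other cells differed between the same pools. Of 15 measured macrophage and monocyte probe sets 11 were called higher in the eccentric than in the control pool, and the summed signal of the 20 on the array was 26829 to 26954 on the eccentric, 8394 to 8967 on the control and 14874 to 15211 on the isometric arrays. Of the 14 genes, Itgam and Fcer1g lay at or below the floor on both control arrays. Fast-fibre markers had a median difference of -0.28 with 0 of 19 called, and summed signals of 339735 to 351597 on the eccentric, 378150 to 463557 on the control and 334004 to 464597 on the isometric arrays. Gpd1 is also abundant in fat, where it makes glycerol 3-phosphate for triglyceride. The summed signal of 7 adipocyte probe sets was 1662 to 2704 on the eccentric, 2129 to 2303 on the control and 2089 to 2169 on the isometric arrays, 0 of 3 measured were called, and Retn and Cidec lay at or below the floor on all 6 arrays. Of the other marker lists, slow-fibre markers had 1 of 7 measured probe sets called higher, neutrophil markers 2 of 5, fibroblast markers 1 of 11, and endothelial, red blood cell and lymphocyte markers 0 of 7, 0 of 3 and 0 of 3. Most probe sets of the slow-fibre, neutrophil and fibroblast lists went the other way, with 6 of 7, 3 of 5 and 6 of 11 below 0. The medians of these lists were -0.26, -0.08 and -0.08. The part of macrophage and fibre content in the differences of the members and their isoforms was not tested.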

How the data were processed

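Per the labels, total RNA of 4 animals was pooled per group and split onto 2 MGU74Av2 arrays. The values the authors deposited are linear intensities, 1 for every probe set on an array. The 6 trimmed means were equal at 500.3 (2% removed at each end), while software, background correction and probe summary were not given in the sources used here. Arrays were scaled to their average trimmed mean by factors of 0.999971 to 1.000022, floored at 120.8, the 40th percentile, and put on a log2 scale. Their number, 2 per pool, limits precision.

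Genes came from the platform annotation: of 12422 probe sets 10833 had 1 gene, 396 several and 1193 none, and for 10817 of those with 1 gene the gene ID was found in a RefSeq table of GRCm38.p6, used for names and promoters. Members and lists were chosen with earlier results of these data known. With 1 pool per group no test of the contractions was made, and the size rule of 2-fold with 4 of one sign stands in its place. Named are all members, in each pathway list the called genes and the 3 brightest, the isoforms of members, and the 5 genes most like Gpd1. Hk1 falls outside this rule. As an alternative limma 3.58.1 (R 4.3.3, Benjamini-Hochberg at 0.05) was fitted over all measured probe sets. It compares these pools, not the conditions. Rule and fit were run on simulated data with changes larger than those of the called members. That run did not check calls near 2-fold or the spread between animals. Python 3.11.15, numpy 2.4.6 and pandas 2.3.3 were used.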

Additional observations from a re-analysis of the deposited data

Results flagged for a closer look

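Gpd1 differed in direction between the exercised pools. On both of its probe sets every eccentric array lay below and every isometric array above both control arrays. For the isometric arrays alone this is common, as 18.5% of all measured probe sets were higher in all pairings. For the eccentric arrays 31.5% were lower in all pairings, and Gpd1 had been chosen by that comparison. The share of probe sets with both patterns was not computed. Nrep, described above, had the same order of pools. The Gpd1 values were eccentric minus control differences of -1.19 (brighter) and -1.03 (dimmer) against isometric minus control differences of 0.19 and 0.23. With 1 pool per group this difference between the pools was not tested.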

How the results depend on the processing

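No direction of a called result reversed. Of 494 recomputed member differences 473 kept their direction and their side of the threshold, or moved by less than the spread of the arrays, 10 lost their call, 3 gained one and 8 moved further. Leaving out 1 of the arrays of a pool cannot move an uncalled difference beyond that spread. No rescaling, no filter on low values and the brightest probe set per gene leave a member difference as it is. The number 473 is therefore no measure of robustness. Of 294 recomputed medians of the other pathway lists 48 moved by more than that spread. Members called lower in the eccentric against the control pool numbered 5 at 1.5-fold, 0 at 3-fold and 1 to 3 with 1 array left out, and their median was -0.24 after quantile normalization. Against the isometric pool they numbered 0 at 3-fold, 1 with the floor at the 60th percentile, where the dimmer Gpd1 probe set had -0.12, and 1 with the brightest probe set per gene. Calls among all probe sets, 447 for eccentric against control, 97 for isometric against control and 166 for eccentric against isometric, were 868, 418 and 475 at a floor of the 20th percentile, 227, 31 and 82 at the 60th, 1465, 491 and 925 at 1.5-fold and 93, 13 and 27 at 3-fold. With 1 array left out they were 484 to 624, 124 to 280 and 227 to 278, and with control A and isometric B removed together the last 2 were 208 and 263. With fewer arrays the rule is looser, since fewer pairings have to share a sign and 1 array above the floor can suffice for its pool. Called probe sets of other pathway genes, 1, 2 and 1, were 18 (eccentric against control) and 11 (eccentric against isometric) at 1.5-fold, 0, 0 and 0 at 3-fold, 4 and 2 in the same order at the 20th percentile, and 0 for isometric against control at the 60th. Without both arrays the last 2 were 0 and 2, and with 1 array left out 1 to 4, 0 to 2 and 1 to 2.

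The letters A and B did not pair the arrays: the A minus B differences of 2 pools correlated at 0.036, -0.146 and -0.037 over 6243 probe sets. limma without a block called 636, 0 and 66 probe sets in the 3 comparisons, of which 3, 0 and 2 were members. For isometric against control 770 had an unadjusted p under 0.05. With the letter as a replicate block it called 320, 0 and 9, with 2, 0 and 0 members, and with crossed letters, a choice made after seeing the data, 439, 0 and 8, with 3, 0 and 0 members; 681 and 799 isometric against control had an unadjusted p under 0.05. Counting the Gapdh-annotated probe sets as members, also chosen after seeing the data, left 3, 0 and 2 called. Floor and array number limit what dim probe sets can show.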
